A study of Mus musculus with 24 samples.

Results

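Gfap and 9 further genes that mouse astrocytes raise when they become reactive were followed over 3 days of induced silencing in the entorhinal cortex. The other members are Vim, Aspg, Serpina3n, Osmr, Cd44, Lcn2, S1pr3, Timp1 and Steap4. They were chosen by name, and all 10 were found among the 55417 genes of the count table. Libraries came from adult mice, 2 to 4 months old, all of genotype tg/tg, from a cross of Nop-tTA Line S with TRE-GlyCl-YFP Line 9531. The driver places a tetracycline-controlled activator under a neuropsin promoter, which is most active in superficial entorhinal neurons, and GlyCl-YFP is an engineered chloride channel that silences the neurons carrying it once it is activated. The vehicle group, Veh, held 6 libraries, of which 4 were female and 2 male. Tissue taken 1, 2 or 3 days after the channel had been activated gave the groups 1DPI, 2DPI and 3DPI, with 3 female and 3 male libraries in each. The labels do not name the activating agent or the time at which Veh tissue was taken, and every group carries both transgenes, so effects of the agent and of silencing cannot be told apart. The labels give each library an animal number of its own but do not say in so many words that each is a separate mouse. If any is not, the p-values measure only the spread between libraries.

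Depth was 16621659 to 23667449 reads per library. The 14 homeostatic astrocyte genes examined, Slc1a2, Aqp4 and Aldh1l1 among them, and the 5 neuron markers were counted in every group, while no marker particular to the entorhinal cortex was examined. The sex labels had 0 mismatches. Ttr, a transcript of the choroid plexus, stood at 562 to 1174 CPM (counts scaled to the library's total) in 8 libraries, 1 from Veh, 2 from 1DPI, 2 from 2DPI and 3 from 3DPI, while the other 16 ranged from 8.28 to 25.9 CPM. The transgene marker EYFP averaged 112 ± 19.2 CPM in Veh, 110 ± 20.6 at 1DPI, 101 ± 10.9 at 2DPI and 61.9 ± 9.95 at 3DPI (SD, n = 6 each).

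Astrocytes respond to injury, inflammation and disturbed neurons with a change of state called reactivity, in which the intermediate filaments of their cytoskeleton, above all GFAP, become more abundant. Cytokines of the interleukin-6 family drive much of this response. They bind receptors that share the gp130 subunit, such as the oncostatin M receptor, and act through the transcription factor STAT3. The reactive set examined here covers filament proteins (Gfap, Vim), surface receptors (Osmr, S1pr3, Cd44), secreted proteins (Serpina3n, Timp1, Lcn2) and enzymes (Aspg, Steap4).

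The promoters of 5 members are shown because these genes carry the comparisons that follow: Gfap, Aspg and Osmr were each called higher in at least 1 comparison, Vim is the filament partner of Gfap, and Steap4 held the only match to a STAT motif. Each sequence is the 250 bases before the annotated start, from RefSeq on GRCm38.p6, written 5′ to 3′ on the strand of the gene. Capitals mark matches, on either strand, to the motifs searched in all 10 members, which were the STAT motif TTCNNNGAA, the AP-1 motif TGANTCA, the cyclic AMP response element TGACGTCA and the TATA box TATAAA.
Gfap (chr11:102897201-102897450, minus strand): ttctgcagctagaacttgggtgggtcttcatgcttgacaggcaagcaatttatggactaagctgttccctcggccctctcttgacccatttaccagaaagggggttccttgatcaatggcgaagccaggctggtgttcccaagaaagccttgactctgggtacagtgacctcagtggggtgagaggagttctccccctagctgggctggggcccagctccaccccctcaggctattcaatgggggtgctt
Aspg (chr12:112106433-112106682, plus strand): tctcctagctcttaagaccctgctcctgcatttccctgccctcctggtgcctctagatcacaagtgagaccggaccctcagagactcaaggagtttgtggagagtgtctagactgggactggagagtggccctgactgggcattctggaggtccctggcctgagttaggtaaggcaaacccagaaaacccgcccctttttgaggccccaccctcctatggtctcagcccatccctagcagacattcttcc
Osmr (chr15:6874314-6874563, minus strand): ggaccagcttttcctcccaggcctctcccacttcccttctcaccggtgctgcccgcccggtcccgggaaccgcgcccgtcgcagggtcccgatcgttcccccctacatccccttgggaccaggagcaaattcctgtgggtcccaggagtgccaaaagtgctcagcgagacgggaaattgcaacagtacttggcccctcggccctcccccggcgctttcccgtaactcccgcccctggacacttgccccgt
Vim (chr2:13574061-13574310, plus strand): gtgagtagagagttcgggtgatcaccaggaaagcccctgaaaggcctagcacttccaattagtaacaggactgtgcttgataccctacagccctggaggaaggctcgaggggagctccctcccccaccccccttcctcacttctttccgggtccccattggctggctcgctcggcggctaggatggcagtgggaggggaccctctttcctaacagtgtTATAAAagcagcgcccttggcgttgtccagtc
Steap4 (chr5:7960222-7960471, plus strand): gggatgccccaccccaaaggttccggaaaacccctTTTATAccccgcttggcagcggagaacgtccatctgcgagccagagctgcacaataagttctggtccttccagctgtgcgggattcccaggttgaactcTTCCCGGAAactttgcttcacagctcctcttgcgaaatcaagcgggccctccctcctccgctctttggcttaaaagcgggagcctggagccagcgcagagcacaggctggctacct
The STAT motif stood in 1 of 10 members, 116 bases before the start of Steap4, and in 7.02% of 32851 promoters of that length. The TATA motif stood in 2 of 10 members, 32 bases before the start of Vim and, on the other strand, 215 bases before the start of Steap4, and in 12.4% of all promoters. No member held the AP-1 motif (6.75% of all promoters) or the cyclic AMP response element (1.55%). A match is a run of letters and not a measured binding site, and no match speaks only of this window.

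Of the 10 members, 9 passed the filter on low counts and were tested among 16767 genes, and Lcn2 did not. At 1DPI against Veh, 0 of the 9 had an adjusted p under 0.05 (edgeR quasi-likelihood test, Benjamini-Hochberg adjustment over all genes tested, the call rule used throughout), beside 0.0656% of all genes tested. DESeq2 and limma voom also called 0 of the 9 at 1DPI, and Gfap alone had an unadjusted p under 0.05. At 2DPI against Veh, Gfap was called and 8 were not, beside 0.0656% of all genes. At 3DPI against Veh, Gfap and Aspg were called and 7 were not, beside 0.614% of all genes. By edgeR, 5 of the 9 had an unadjusted p under 0.05 at 3DPI. The share of all genes at that unadjusted level is not given, here or for the lists below, so such counts carry no result by themselves. The median log2 fold change of the 9 genes was 0.11 at 1DPI, 0.13 at 2DPI and 0.52 at 3DPI, and that of all genes tested was 0.001, 0.001 and -0.002. The 3DPI median is the value of Steap4 itself, which had an SE of 0.43 and 4 to 15 reads per library. The values next to it were 0.19 for Vim and 0.60 for Osmr, so this median is loosely fixed. The 9 values ran from -0.06 to 0.46 at 1DPI, from -0.04 to 0.51 at 2DPI and from 0.04 to 1.12 at 3DPI, when all 9 lay above 0. In 1 test of the 3 days together against Veh, which called 0.644% of genes, Gfap was called (adjusted p = 4.7e-10, lowest of all genes) and Aspg and Osmr had adjusted p = 0.0626 and 0.0739.

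**Figure D1:**
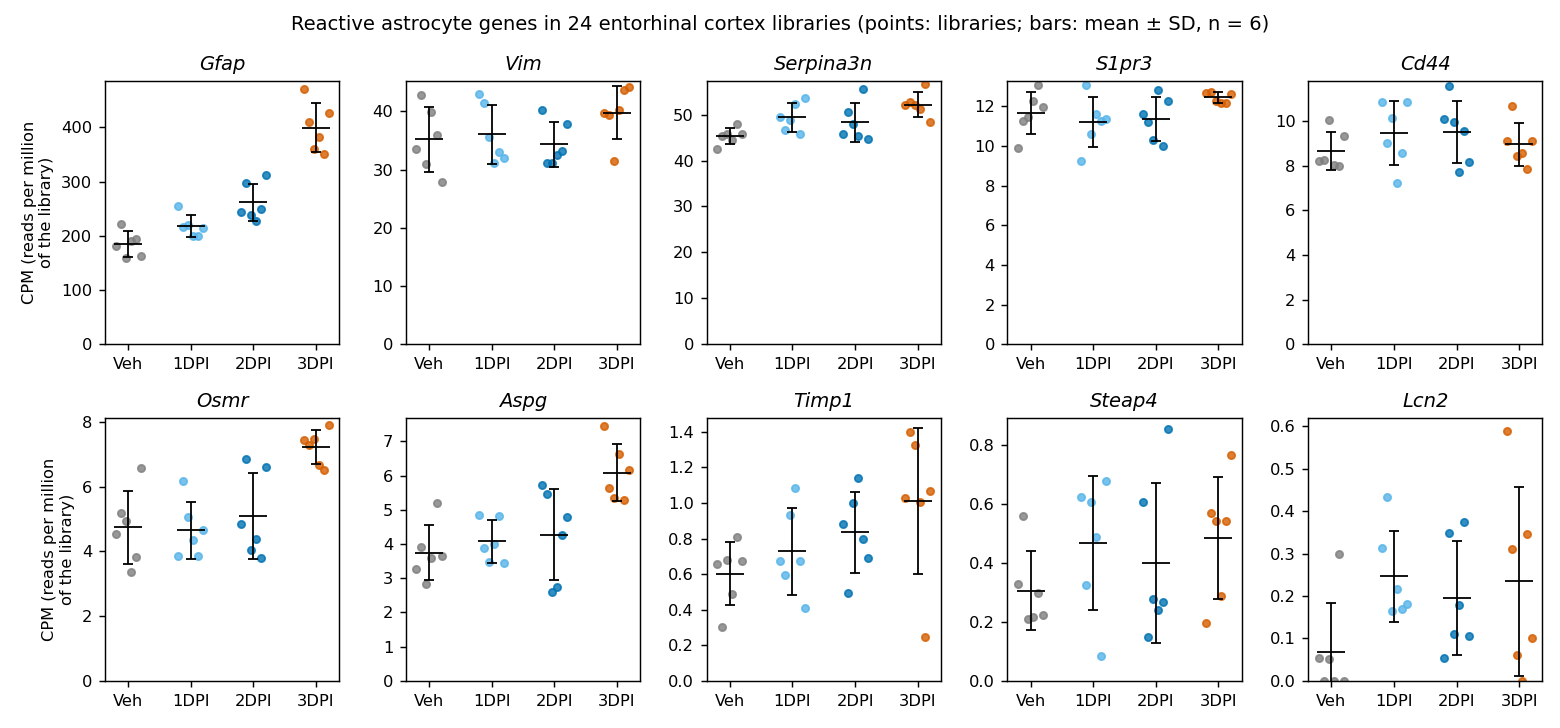
Level of each of the 10 genes in CPM (vertical axes, each from 0) in the 6 libraries of each group (horizontal axes), with the mean and SD. Gfap lies at 350 to 470 CPM in the 3DPI libraries, above every library of the other groups, whereas the S1pr3 and Cd44 groups overlap throughout.

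Gfap (ENSMUSG00000020932.15), which encodes the main intermediate filament of astrocytes, was higher than in Veh at 2DPI and again higher at 3DPI. Its level ran from 159 to 222.5 CPM in Veh (median 186), from 199.9 to 256 CPM at 1DPI (median 215), from 228 to 313 CPM at 2DPI (median 247) and from 350 to 470 CPM at 3DPI (median 395). Every 2DPI and every 3DPI library lay above every Veh library, and the 3DPI libraries also lay above every library of the earlier days, while 1DPI and Veh overlapped. The log2 fold change against Veh was 0.24 ± 0.08 at 1DPI (SE, n = 6 per group; adjusted p = 0.344), 0.51 ± 0.08 at 2DPI (adjusted p = 0.00116) and 1.12 ± 0.08 at 3DPI (adjusted p = 1.77e-10). The last is a 2.17-fold level, 400 ± 44.9 CPM at 3DPI and 185 ± 23.3 CPM in Veh (SD), and it had the lowest p-value of the 16767 genes. At 1DPI all 6 libraries stood above the Veh median and 1 stood above the highest Veh library.

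Between the days, Gfap was higher at 3DPI than at 2DPI by 0.61 ± 0.08 on the log2 scale (edgeR adjusted p = 6.67e-05), a comparison that called 0.131% of genes and no other member. It was higher at 3DPI than at 1DPI by 0.88 ± 0.08 (adjusted p = 4.9e-08), where 0.65% of genes were called. The difference between 2DPI and 1DPI, 0.27 ± 0.08, did not pass (adjusted p = 0.72), and 0.0119% of genes were called there. In the order of levels, Veh and 1DPI therefore did not differ beyond the test, nor did 1DPI and 2DPI, while 3DPI stood apart from each. The 95% interval was 0.08 to 0.40 for 1DPI against Veh and 0.12 to 0.43 for 2DPI against 1DPI. Both lie above 0 without adjustment over all genes, so failing the adjusted test does not show equal levels. In females Gfap was higher at 3DPI than in Veh by 1.13 ± 0.10 and in males by 1.11 ± 0.13, a difference of 0.01 ± 0.16 between the sexes (adjusted p = 1). That interaction test called 0% of genes with edgeR, the only tool run for it, and 738 genes had an unadjusted p under 0.05 in it. In each sex fitted alone the 3DPI call stood, and the 2DPI call was lost (adjusted p from 1.25e-24 to 0.34 over the 14 alternative settings, DESeq2 and limma voom among them).

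Vim (ENSMUSG00000026728.10) encodes vimentin, the filament protein that assembles with GFAP in reactive astrocytes and is also made by endothelial cells, fibroblasts and microglia. Its level ran from 31.4 to 44.3 CPM at 3DPI (median 39.995) and from 27.8 to 42.9 CPM in Veh (median 34.8), and the groups overlapped. Against Veh it differed on the log2 scale by 0.03 ± 0.09 at 1DPI, -0.02 ± 0.09 at 2DPI and 0.19 ± 0.09 at 3DPI (edgeR adjusted p = 0.97, 0.997 and 0.911), and the 95% interval at 3DPI reached from -0.005 to 0.38. The ratio of Gfap to Vim reads within a library sets the 2 filament genes side by side without any scaling between libraries. There were 8.01 to 11.8 Gfap reads per Vim read in the 3DPI libraries and 4.78 to 5.82 in the Veh libraries. In the libraries between, the ratio was 5.19 to 6.69 at 1DPI and 6.06 to 9.53 at 2DPI, so that every 2DPI and 3DPI library lay above every Veh library.

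**Figure D2:**
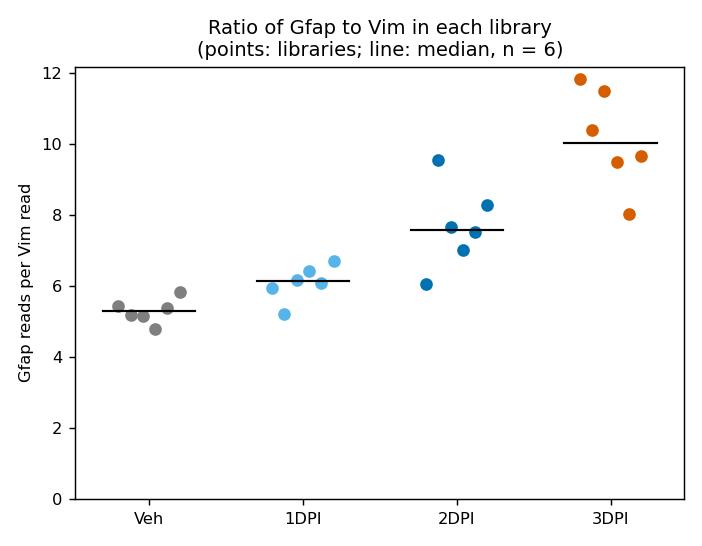
Gfap reads per Vim read (vertical axis, from 0) in each library of the 4 groups, with the group median as a line. The 3DPI libraries lie at 8.01 to 11.8 and the Veh libraries at 4.78 to 5.82.

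The same comparison was made of Gfap with each of the 8 tested members at 3DPI against Veh, on log2 CPM within a library, after the values had been seen. The log2 ratio was higher at 3DPI than in Veh by 0.93 for Vim, 0.91 for Serpina3n, 1.06 for Cd44, 1.01 for S1pr3 and 0.41 for Aspg, and in these 5 the 6 libraries of each group did not overlap (two-sided exact permutation test, p = 0.00216, the smallest 6 against 6 libraries can give; adjusted p over the 8 ratios 0.00346). For Osmr it was higher by 0.49 (exact test, adjusted p = 0.026) and for Steap4 by 0.64 (adjusted p = 0.0346), with overlap. For Timp1 the difference of 0.55 did not pass (adjusted p = 0.177). Without the 8 Ttr-rich libraries the Osmr ratio no longer passed (0.62, exact permutation test, adjusted p = 0.0816). The difference there was 0.25 for Aspg (adjusted p = 0.0286), 1.06 for Steap4 (adjusted p = 0.0476) and 0.91 for Timp1 (adjusted p = 0.107). Gfap had the lowest p-value of all genes at 3DPI against Veh, so its ratio to most genes that held steady would also rise. The share of all genes with such a ratio was not computed, so the count of ratios that passed shows nothing particular to these members. The comparison shows change unequal to that of Gfap for Vim, Serpina3n, Cd44, S1pr3 and Aspg. It does not show this for Timp1, nor for Osmr once the Ttr-rich libraries are left out. Steap4 passed, but on 4 to 15 reads per library at 3DPI, where its edgeR log2 fold change against Veh was 0.52 ± 0.43 (SE). The small count added before taking log2 CPM shrinks changes at so few reads, which can enlarge the Steap4 and Timp1 differences. No ratio shows that a gene did not change.

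**Figure D3:**
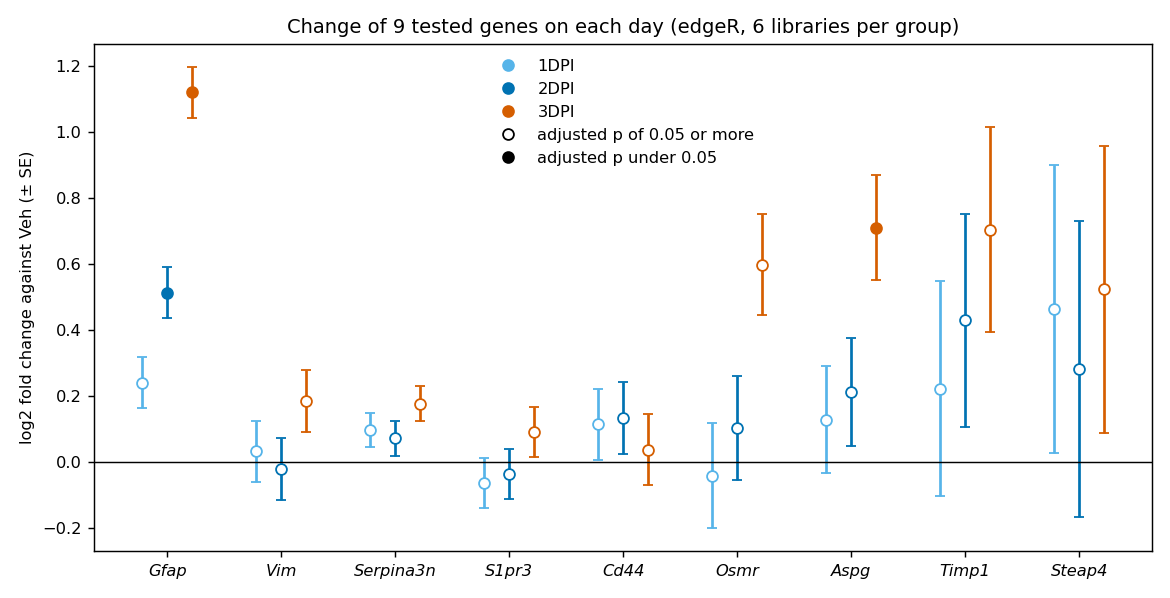
Log2 fold change of the 9 tested genes (horizontal axis) at 1DPI, 2DPI and 3DPI against Veh, with the SE of the edgeR fit; filled points had an adjusted p under 0.05. Gfap at 2DPI (0.51) and 3DPI (1.12) and Aspg at 3DPI (0.71) are filled, and Osmr at 3DPI (0.60) is not.

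Osmr (ENSMUSG00000022146.13) encodes the subunit that binds oncostatin M and pairs with gp130. Its level ran from 6.51 to 7.90 CPM at 3DPI (median 7.37) and from 3.36 to 6.57 CPM in Veh (median 4.73). The lowest 3DPI library lay just below the highest Veh library, and the other 5 lay above all of Veh. At 3DPI against Veh the log2 fold change of 0.60 ± 0.15 did not pass (edgeR adjusted p = 0.0781), and it passed with DESeq2 and with limma voom (adjusted p = 0.0179 and 0.032). It also passed with no filter on low counts (edgeR adjusted p = 0.00147). It did so on weaker grounds, as that fit called 159 genes at 1DPI against Veh and the main fit 11. It was 0.71 in females alone and 0.37 in males alone, and the difference between the sexes did not pass (adjusted p = 1). Osmr was higher at 3DPI than at 1DPI by 0.64 ± 0.15 (adjusted p = 0.0418), with 7.21 ± 0.524 CPM at 3DPI and 4.65 ± 0.878 CPM at 1DPI (SD, n = 6 each) and no overlap. That call was lost when 1DPI replicate 1, 3, 4, 5 or 6 or any 1 of the 3DPI libraries was left out, with an adjusted p of at most 0.133. It was also lost with the first 2 digits of the animal number as a factor and without the Ttr-rich libraries, and in each sex alone. At 1DPI and 2DPI against Veh, Osmr stood at -0.04 ± 0.16 and 0.10 ± 0.16.

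S1pr3 (ENSMUSG00000067586.5), a receptor for the lipid sphingosine 1-phosphate, was at 12.2 to 12.7 CPM in the 3DPI libraries (median 12.5) and at 9.90 to 13.1 CPM in Veh (median 11.7). The 3DPI libraries were close to each other, with a coefficient of variation of 2.09%, and all lay within the range of Veh. Its log2 fold change was -0.06 ± 0.08, -0.04 ± 0.08 and 0.09 ± 0.08 on the 3 days in order, and the 95% interval at 3DPI was -0.06 to 0.25. S1pr3 shares 45 exon bases with an antisense transcript, Gm32834, and reads of the pair cannot be told apart here. Cd44 (ENSMUSG00000005087.18), the cell surface receptor for hyaluronan, was at 7.85 to 10.7 CPM at 3DPI (median 8.83) and at 7.98 to 10.1 CPM in Veh (median 8.22). Its groups overlapped on every day. Its log2 fold change of 0.04 ± 0.11 at 3DPI had a 95% interval of -0.18 to 0.26 (edgeR adjusted p = 0.999), and the value was below 0 in males alone (-0.08) and without the Ttr-rich libraries (-0.06).

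Serpina3n (ENSMUSG00000021091.9), a secreted inhibitor of serine proteases, was at 48.4 to 56.6 CPM at 3DPI (median 52.04) and at 42.4 to 48.0 CPM in Veh (median 45.6). Every 3DPI library lay above every Veh library, by a narrow margin between the lowest and the highest. Its log2 fold change of 0.18 ± 0.05 did not pass (edgeR adjusted p = 0.18). Of all genes tested, 0.692% had every 3DPI library above every Veh library, and among the 9 members these were Gfap, Aspg and Serpina3n. At 2DPI 0.262% of genes had this order and Gfap alone of the members, and at 1DPI 0.364% of genes and 0 members. Of the 10 related Serpina3 genes listed beside it, 1 passed the count filter, Serpina3h, at 0.24 ± 0.37 (edgeR adjusted p = 0.999). The 10 together summed to 0.621 to 1.38 CPM at 3DPI and to 0.562 to 1.73 CPM in Veh. Whether reads were split between these related genes was not tested.

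Timp1 (ENSMUSG00000001131.12), a secreted inhibitor of matrix metalloproteinases, was counted with 5 to 27 reads per library at 3DPI and 6 to 19 in Veh. Its level ran from 0.247 to 1.40 CPM at 3DPI (median 1.05) and from 0.305 to 0.811 CPM in Veh (median 0.665). In 5 of the 6 libraries at 3DPI it lay above every Veh library, while 3DPI replicate 5 was the lowest of all 24. The log2 fold change of 0.70 ± 0.31 did not pass (edgeR adjusted p = 0.811; 95% interval 0.07 to 1.34), and it was 0.97 in females alone, 0.35 in males alone and 0.43 without the Ttr-rich libraries. Timp1 lies within Syn1 on the opposite strand, with 0 exon bases shared, and Syn1 is a neuronal gene.

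Lcn2 (ENSMUSG00000026822.15), a secreted lipocalin that binds iron carried by siderophores and is among the strongest responders in inflamed astrocytes, was barely counted. It had 9 reads in the 6 Veh libraries together, 29 at 1DPI, 22 at 2DPI and 28 at 3DPI. In Veh, 7 of the 9 reads came from replicate 5 and 3 libraries had 0 reads, while at 3DPI the libraries held 0 to 12 reads. On mean log2 CPM the difference from Veh was 1.14 at 1DPI (two-sided exact permutation test, p = 0.0108; adjusted over the 3 days 0.0324), 0.89 at 2DPI (p = 0.0433; adjusted 0.0649) and 0.86 at 3DPI (p = 0.108; adjusted 0.108). All 6 libraries at 1DPI lay above the Veh median and 2 above the highest Veh library. On mean CPM the exact p was 0.0238, 0.13 and 0.0909, in the same order of days. Leaving out 1 library at a time, the exact p on mean log2 CPM ran from 0.00216 to 0.026 at 1DPI, from 0.00433 to 0.0931 at 2DPI and from 0.0346 to 0.227 at 3DPI. Without Veh replicate 5, which held most of the Veh reads, it was 0.00216, 0.00433 and 0.0541. The level of 0.234 CPM at 3DPI and 0.0676 CPM in Veh rests on a few reads per library, and a change in this range was not well measured at this depth. Markers of neutrophils, which also make Lcn2, summed to 0.0602 to 0.336 CPM at 3DPI and 0.0562 to 0.262 CPM in Veh, with 0 of 4 passing the count filter, and Retnlg was at 0 in every 2DPI library. Their part in the Lcn2 reads was not tested.

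Aspg (ENSMUSG00000037686.7), which encodes an asparaginase, was the other member called against Veh. Its level ran from 5.28 to 7.45 CPM at 3DPI (median 5.90) and from 2.83 to 5.21 CPM in Veh (median 3.62), so that the groups did not overlap. The log2 fold change was 0.13 ± 0.16 at 1DPI, 0.21 ± 0.16 at 2DPI and 0.71 ± 0.16 at 3DPI (edgeR adjusted p = 0.927, 0.99 and 0.0228), with 6.08 ± 0.840 CPM at 3DPI and 3.74 ± 0.806 CPM in Veh (SD, n = 6 each). Every 3DPI library also lay above every 1DPI library, where the log2 difference of 0.58 ± 0.16 had an adjusted p of 0.0971 (0.0293 with DESeq2, 0.00768 with no filter on low counts and 0.0153 with only the 2 groups compared). The 3DPI call was lost on leaving out Veh replicate 1, 3 or 4 or 3DPI replicate 1 or 6 (adjusted p up to 0.104), with a log2 fold change of 0.63 to 0.81 over the 24 such fits. It was also lost in each sex alone. At 2DPI the libraries spread from 2.61 to 5.73 CPM, wider than in any other group.

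Steap4 (ENSMUSG00000012428.10), a membrane enzyme that reduces iron and copper, was counted with 4 to 15 reads per library at 3DPI and 4 to 11 in Veh. Its level ran from 0.196 to 0.764 CPM at 3DPI (median 0.542) and from 0.210 to 0.559 CPM in Veh (median 0.262), with overlap on all days. Its log2 fold change was 0.46 ± 0.44, 0.28 ± 0.45 and 0.52 ± 0.43 on the 3 days in order, and none passed (edgeR adjusted p = 0.895, 0.991 and 0.999). At 3DPI it was 0.10 in females alone, 1.11 in males alone and 0.12 without the Ttr-rich libraries, and the difference between the sexes did not pass (adjusted p = 1).

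Whether libraries of 1 group that hold more Gfap also hold more of another member was asked after group and sex had been fitted, over 24 libraries and 9 pairs. Vim had r = 0.48, Aspg r = 0.49 and Steap4 r = 0.50 (permutation test with 100000 resamples, raw p = 0.0165, 0.0157 and 0.0117; adjusted p = 0.0495 for each), and Spearman's rho was 0.50, 0.44 and 0.45 (raw permutation p = 0.0139, 0.033 and 0.0292; adjusted p = 0.0991 for each). Without the 2 libraries whose Gfap residuals after group and sex lay farthest from the median residual, 2DPI replicate 4 and Veh replicate 3, r was 0.39 for Vim (permutation p = 0.0721), 0.23 for Aspg (p = 0.316) and 0.56 for Steap4 (p = 0.00691), so that Vim and Aspg no longer passed, and the Aspg relation rests on those libraries. With the first 2 digits of the animal number also fitted, Vim and Aspg did not pass (adjusted p = 0.141 and 0.538) and Steap4 did (r = 0.57, adjusted p = 0.031). The other 6 pairs had r from -0.28 to 0.24 and did not pass (lowest adjusted p = 0.409 for r). Steap4 rests on 2 to 16 reads per library. The permutation shuffled the residuals of all 24 libraries freely, although fitting group and sex had used up part of their freedom. Its p-values are therefore too small, more so with the animal number digits fitted. An adjusted p of 0.0495 or 0.031 from it does not establish a relation.

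**Figure D4:**
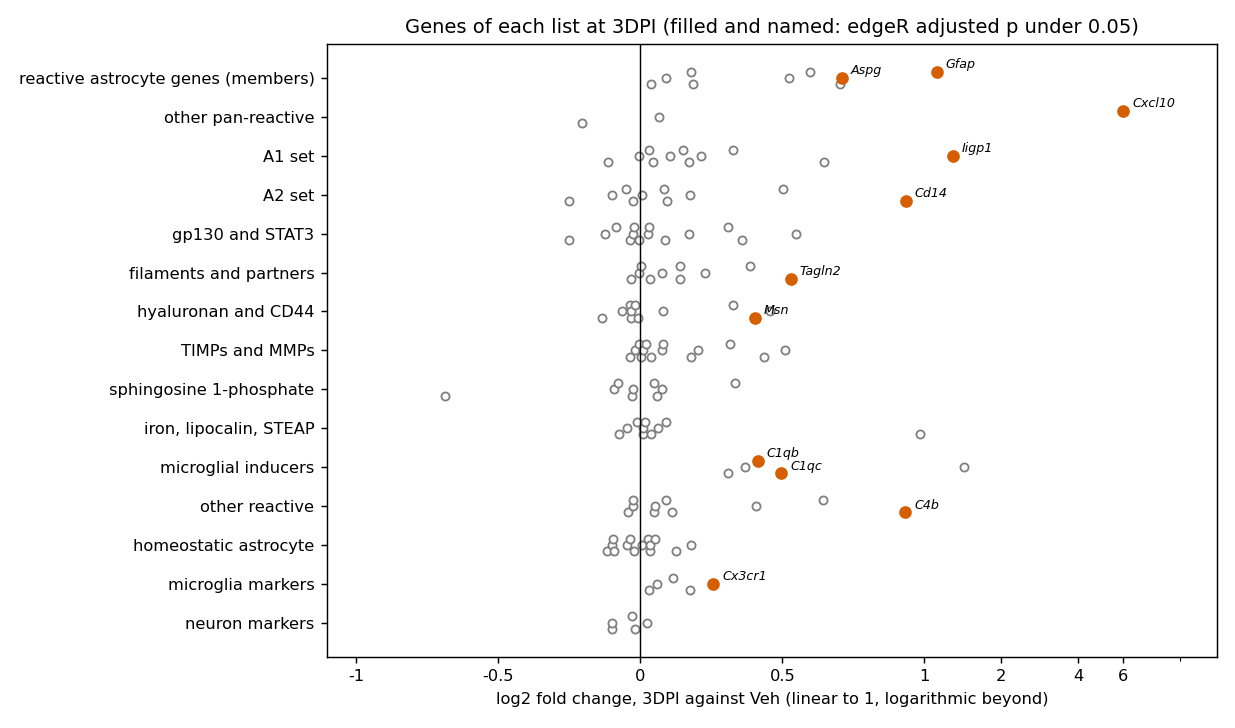
Log2 fold change at 3DPI against Veh (horizontal axis, linear to 1 and logarithmic beyond) of each tested gene in 15 lists, 1 below the other. Filled and named points had an edgeR adjusted p under 0.05; Gfap (1.12) and Aspg (0.71) are the filled members, Cxcl10 (5.996) is the farthest right, and no homeostatic astrocyte gene is filled.

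Beyond the members, other genes tied to astrocyte reactivity were examined as lists. The pan-reactive genes Cp, Hspb1 and Cxcl10 included 1 called gene: Cxcl10, a chemokine induced by interferon and by NF-kB, had 508 reads in the 3DPI libraries and 7 in the Veh libraries, with a log2 fold change of 5.996 ± 0.56 (edgeR adjusted p = 5.9e-08). Cp, ceruloplasmin, stood at 0.07 ± 0.14 and Hspb1, a small heat shock protein, at -0.21 ± 0.12 (adjusted p = 0.999 and 0.98). Cxcl10 had 28 reads at 1DPI, 19 of them from 1 library, and 41 at 2DPI. Of 11 tested genes of the A1 set, named for astrocytes exposed to inflammatory signals, Iigp1, an interferon-induced GTPase, rose by 1.29 ± 0.23 at 3DPI (adjusted p = 0.00154), and 10 did not pass. Of 10 tested genes of the A2 set, named for astrocytes after ischaemia, Cd14, a co-receptor for bacterial lipopolysaccharide that microglia also make, rose by 0.94 ± 0.17 (adjusted p = 0.00265), and 9 did not pass. The median log2 fold change at 3DPI was 0.15 in the A1 set and 0.05 in the A2 set. At 1DPI and 2DPI neither set had a gene called by edgeR, DESeq2 or limma voom, beside 0.0656% of all genes by edgeR. On each of these days 1 gene of the A1 set and 0 of the A2 set had an unadjusted p under 0.05.

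Of 18 genes listed for the gp130 and STAT3 route, 14 passed the count filter and were tested. Its ligands were thinly counted. The 6 libraries at 3DPI together held 12 reads of Osm, 5 of Il6, 2 of Cntf, 27 of Il11, 86 of Clcf1 and 131 of Lif. Of the 14 tested genes, 0 passed on any day by edgeR, DESeq2 or limma voom, near the share of all genes (0.0656% to 0.614% by edgeR). By edgeR 4 of them had an unadjusted p under 0.05 at 3DPI. Their median log2 fold change at 3DPI was 0.01. Jak1, a kinase bound to the receptor, stood at 0.03 ± 0.04, Il6st, which is gp130, at -0.03 ± 0.05 and Cntfr, the receptor for ciliary neurotrophic factor, at -0.04 ± 0.05 (adjusted p = 0.999 each). Stat3 stood at 0.17 ± 0.05 (adjusted p = 0.145), at 60.1 ± 3.44 CPM at 3DPI and 52.9 ± 3.77 CPM in Veh (SD, n = 6 each), with 5 of 6 libraries above every Veh library. It was named after its values had been seen. Of 10 genes for filaments and their partners, Tagln2, an actin-binding protein, rose by 0.53 ± 0.11 at 3DPI (edgeR adjusted p = 0.0064), and Nes, which encodes the filament nestin and was named after its values had been seen, stood at 0.39 ± 0.10 (adjusted p = 0.107) and passed with DESeq2 (adjusted p = 0.0408) and with no filter on low counts (0.00692). Of 11 genes around hyaluronan and Cd44, Msn, which encodes moesin and ties membrane proteins such as CD44 to actin, rose by 0.40 ± 0.07 (adjusted p = 0.000884), with 32.3 ± 2.49 CPM at 3DPI and 24.5 ± 1.95 CPM in Veh (SD, n = 6 each) and no overlap. Without the Ttr-rich libraries the 3DPI calls of Cd14 and Tagln2 were lost (edgeR adjusted p = 0.077 and 0.109). The calls of Iigp1, Tagln2 and Msn were lost in each sex alone (adjusted p of 0.0878 to 0.468), and that of Cd14 in males alone (0.674).

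Lists around the remaining members had 0 called genes on any day by edgeR, DESeq2 or limma voom. By edgeR 0.0656%, 0.0656% and 0.614% of all genes tested were called at 1DPI, 2DPI and 3DPI against Veh. At such shares 0 calls in a short list is near the level of all genes and does not show steady levels. At 3DPI an unadjusted p under 0.05 was reached by edgeR in 4 genes of metalloproteinases and inhibitors, 2 of sphingosine 1-phosphate and 0 of iron handling. Among 14 metalloproteinases and their inhibitors, Timp2 stood at 0.08 ± 0.06, Mmp17 at 0.01 ± 0.04 and Adam10 at 0.004 ± 0.044 at 3DPI. Among 9 genes of sphingosine 1-phosphate, the receptor S1pr1 stood at -0.09 ± 0.05 (adjusted p = 0.876), the transporter Spns2 at -0.08 ± 0.06 and the phosphatase Sgpp1 at -0.03 ± 0.06. Among 10 genes of iron handling, the ferritin subunit Fth1 stood at 0.01 ± 0.04, Slc22a17, the lipocalin receptor, at 0.04 ± 0.04 and Trf, transferrin, at 0.02 ± 0.09 (edgeR adjusted p = 0.999 for these and for the genes named without a p). The 14 homeostatic astrocyte genes serve glutamate uptake, water balance and metabolism. They also had 0 calls on any day by these tools, again near the share of all genes. On each day 2 of them had an unadjusted p under 0.05 by edgeR. Their median log2 fold change at 3DPI was -0.01, with Slc1a2, the main glutamate transporter, at -0.09 ± 0.04, Glul, glutamine synthetase, at -0.12 ± 0.05 and Aldoc, an aldolase, at -0.02 ± 0.05 (adjusted p = 0.844, 0.825 and 0.999). Their summed level was 6685 to 7467 CPM at 3DPI (median 6945) and 6543 to 7664 CPM in Veh (median 7302). In bulk tissue, fewer cells of a type and less RNA per cell cannot be told apart, nor can more cells and more RNA per cell.

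C4b, a complement component that astrocytes and oligodendrocytes also make, was higher than in Veh by 0.45 ± 0.09 at 1DPI, 0.59 ± 0.09 at 2DPI and 0.93 ± 0.09 at 3DPI (edgeR adjusted p = 0.035, 0.00114 and 5.9e-08), and 9 of the 10 genes in its list of further reactive genes did not pass on any day. The 1DPI call of C4b was lost when Veh replicate 4, 5 or 6 or 1DPI replicate 1, 2, 3, 4 or 6 was left out. C4b has a near-identical copy, so its reads may have been split. Of 5 tested genes for microglial signals that induce reactive astrocytes, C1qb rose by 0.41 ± 0.08 and C1qc by 0.50 ± 0.12 at 3DPI (adjusted p = 0.00738 and 0.0376), and C1qa, named after its values had been seen, stood at 0.37 ± 0.09 (adjusted p = 0.0628) and passed with DESeq2 (adjusted p = 0.017) and with the animal number digits fitted (0.00924), among other settings. The call of C1qb was lost without 3DPI replicate 1. All 5 tested genes for microglial signals lay above 0 at 3DPI, each with an unadjusted p under 0.05 by edgeR. Among them Il1a, named after its values had been seen, had 83 reads in the 3DPI libraries and 30 in Veh. Its level was 0.719 ± 0.215 CPM at 3DPI and 0.248 ± 0.171 CPM in Veh (SD, n = 6 each), and edgeR did not call it. Without the Ttr-rich libraries C4b at 1DPI and 2DPI and C1qc at 3DPI were not called (edgeR adjusted p = 0.199, 0.118 and 0.163). C4b at 1DPI was also not called with limma voom (adjusted p = 0.0573) or with only the 2 groups compared (0.116), nor C1qc with no sex term (0.0689). In each sex alone C4b at 1DPI and 2DPI, C1qb and C1qc were not called, while C4b at 3DPI was called in all 14 settings. The call of C1qc was also lost without Veh replicate 1, 3, 4, 5 or 6 or 3DPI replicate 1, 2, 5 or 6.

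Of 5 microglia markers, Cx3cr1, the fractalkine receptor, rose by 0.26 ± 0.06 at 3DPI (edgeR adjusted p = 0.0412), and 4 did not pass. The call of Cx3cr1 was lost in 14 of the 24 fits that each left out 1 library, among them Veh replicates 3, 4, 5 and 6 and 3DPI replicates 1, 2, 3, 5 and 6, and it held in 6 of 14 other settings. The 5 markers summed to 206 to 258 CPM at 3DPI (median 233) and to 189 to 226 CPM in Veh (median 206), with overlap, and no marker was at 0. Within groups, Gfap and the summed microglia markers went together (r = 0.77 over 24 libraries after group and sex were fitted, permutation test with 100000 resamples, p = 1e-05, the smallest these can give; adjusted p = 5e-05 over 5 relations). Spearman's rho was 0.74 (permutation p = 9e-05, adjusted 0.00045), and r was 0.75 without the 2 libraries farthest from the median of the microglia markers (permutation p = 0.00012) and 0.76 with the animal number digits fitted (adjusted p = 5e-05). Homeostatic astrocyte genes had r = 0.51 with Gfap (permutation p = 0.0121, adjusted 0.0302; rho = 0.39, adjusted 0.146), and r was 0.28 without the 2 farthest libraries (permutation p = 0.213) and 0.63 with the animal number digits fitted (adjusted p = 0.0019). EYFP, neuron markers and choroid plexus markers had r of -0.05, -0.01 and -0.01 (lowest permutation p = 0.83; adjusted 0.965). With the animal number digits fitted, neuron markers had r = -0.65 (permutation test, adjusted p = 0.00137) and choroid plexus markers r = 0.53 (adjusted p = 0.0101), both then past the threshold, while EYFP had r = -0.34 (adjusted p = 0.103). Residuals were again shuffled freely after each fit, so the permutation p-values of all 5 relations are too small. This matters most with the digits fitted, where passing the threshold does not establish a relation of neuron or choroid plexus markers. These 5 relations were chosen after the values had been seen, and the part of microglia in the Gfap level was not tested.

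**Figure D5:**
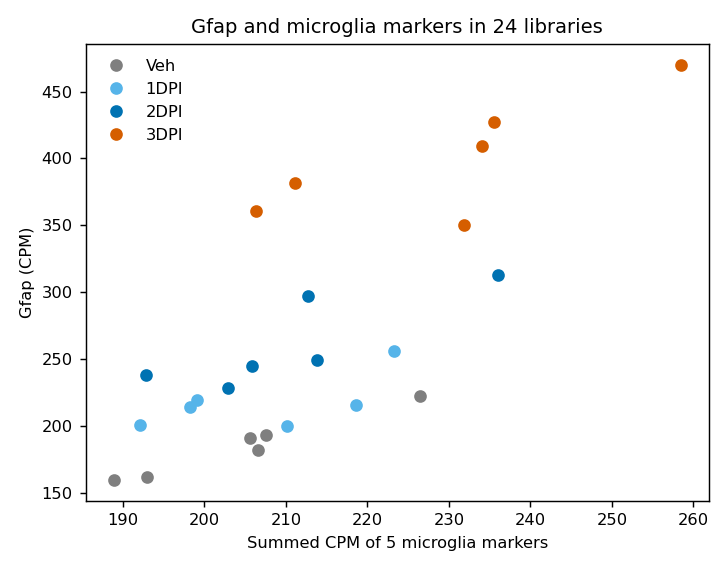
Gfap in CPM (vertical axis) against the summed CPM of 5 microglia markers (horizontal axis) in each of the 24 libraries, coloured by group; neither axis starts at 0. The 3DPI libraries lie at 350 to 470 CPM of Gfap and 206 to 258 CPM of the markers, and the Veh libraries at 159 to 222.5 and 189 to 226 CPM.

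The genes whose log2 CPM over the 24 libraries was most like that of Gfap were sought among 13352 named genes whose mean log2 CPM reached 1. Of the 8 most alike, 7 are given, namely Ctsz (r = 0.93), Olfml3 (0.92), Lcp1 (0.92), C4b (0.91), Slc15a3 (0.90), Ly86 (0.88) and Mpeg1 (0.87), as a description in which the rise over the groups takes part. After group and sex were fitted their r with Gfap was 0.40 to 0.82, with Ctsz highest. The genes were chosen for likeness to Gfap in these same libraries, which favours both this r and their 3DPI calls. The libraries are bulk tissue, so likeness to Gfap does not place these genes in astrocytes, and the cells that made them were not tested. Ctsz, a lysosomal carboxypeptidase, was at 37.2 ± 4.61 CPM at 3DPI and 24.3 ± 2.40 CPM in Veh, and Olfml3, a secreted olfactomedin-like protein, at 24.2 ± 3.59 CPM at 3DPI and 15.03 ± 0.958 CPM in Veh (SD, n = 6 each). Slc15a3, a lysosomal peptide transporter, rose by 1.78 ± 0.21 at 3DPI, Ly86, a partner of the receptor Cd180, by 1.05 ± 0.12, Lcp1, the plastin of leukocytes, by 0.62 ± 0.09, and Mpeg1, a perforin of macrophages, by 0.49 ± 0.08 (edgeR adjusted p = 5.91e-06, 4.23e-06, 0.000188 and 0.000563). The calls of Ctsz, Olfml3, Ly86 and Mpeg1 were lost in males alone, that of Lcp1 in each sex alone, and that of Mpeg1 also without the Ttr-rich libraries (edgeR adjusted p = 0.0626). Among the members, Aspg had r = 0.76 with Gfap over the 24 libraries, with 58 of the 13352 genes more alike. Osmr had r = 0.69, with 88 genes more alike. Serpina3n (0.53), Vim (0.50), S1pr3 (0.31), Timp1 (0.30), Steap4 (0.30) and Cd44 (0.10) followed, with 280 to 5142 genes more alike.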

How the data were processed

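Bulk RNA-seq of 24 entorhinal cortex libraries was analysed, 6 per group. The authors deposited 1 table of raw read counts, as whole numbers by gene. The submitters' processing notes name fastp 0.23.1, STAR 2.7.9a, DESeq2 1.32.0 and the mm39 build. The counting program, its annotation and its use of strand are not stated in the labels or notes, so overlapping genes cannot be told apart.

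Groups came from the treatment label, and symbols from a table of Ensembl identifiers (52084 of 55417 rows, EYFP included). No mm39 genome was used, so promoters are on GRCm38.p6 and gene overlaps come from GENCODE vM21. Counts were tested with edgeR 4.0.16 in R 4.3.3 (quasi-likelihood, trimmed mean of M values, filterByExpr with minimum count 10 and minimum total 15, group and sex over all 24 libraries). DESeq2 1.42.0 and limma 3.58.1 were alternatives. Log2 CPM carried a prior count of 2. The biological coefficient of variation was 8.51%, and 60 within-group pairs had chi-square per degree of freedom of 3.71 to 12.6, so no library was counted as a repeat. The edgeR step was tested on simulated data.

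The members, gene lists, tests and naming rule were chosen with earlier results of these data known. Named were the members, every called gene of each list (else up to 3 of the highest level), the genes most like Gfap, EYFP and Ttr. Results for 1 of the microglia markers, also among the genes most like Gfap, are not reported here, and its counts were left out of the marker sum. Further names say so, except Aqp4, Aldh1l1 and the cell type markers. Alternatives covered normalization, filters, tools, covariates and left-out libraries.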

Additional observations from a re-analysis of the deposited data

Results flagged for a closer look

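Within a group of 6, a library was singled out when its gap to the nearest other library exceeded Dixon's 95% critical share of the group's range. This was met in 4 of 40 groups, and chance gives about 1 in 20. Gfap at 1DPI replicate 1 stood at 256 CPM, above the other 5 libraries of that day at 199.9 to 219 CPM. Timp1 at 3DPI replicate 5 stood at 0.247 CPM, with the next library at 1.01 CPM, and had 5 reads. Lcn2 in Veh replicate 5 stood at 0.299 CPM, with the next at 0.0547 CPM, and had 7 reads. Steap4 in Veh replicate 2 stood at 0.559 CPM, with the next at 0.328 CPM, and had 11 reads.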

How the results depend on the processing

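No paired analysis was possible because the labels give no replicate numbers shared between groups. Gfap at 3DPI against Veh kept its direction and its call in all 14 alternatives (log2 fold change 1.10 to 1.14) and in all 24 fits without 1 library (1.07 to 1.17). Its 1DPI value passed only with no filter on low counts (edgeR adjusted p = 0.000106), so the number of members called there was 1. The log2 fold change was 0.243 there and 0.240 in the main fit, and the unfiltered fit called more genes in every comparison. Passing with no filter is therefore weak ground for Gfap at 1DPI, and for Osmr, Aspg and Nes above. Where a value moved, the cause was not tested, and the fits in 1 sex or without Ttr-rich libraries held fewer samples.

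With no filter on low counts, 159 genes were called at 1DPI, 86 at 2DPI and 217 at 3DPI against Veh, 58 at 2DPI against 1DPI (1 member), 79 at 3DPI against 2DPI, 295 at 3DPI against 1DPI and 433 for any day (3 members). With DESeq2 the counts were 75 at 1DPI and 18 at 2DPI against Veh and 36 at 3DPI against 2DPI. Limma voom gave 7 at 2DPI against Veh, as did a minimum of 1 CPM in 6 libraries, which gave 1 at 2DPI against 1DPI. Fitting only the groups compared gave 3 at 2DPI against Veh and 0 at 2DPI against 1DPI. With the animal number digits fitted, 31 genes were called at 1DPI against Veh, 0 at 2DPI against 1DPI, 6 at 3DPI against 2DPI and 53 at 3DPI against 1DPI (1 member), and 2 members for any day. Without Ttr-rich libraries, 2 genes were called at 2DPI and 49 at 3DPI against Veh, 1 at 2DPI against 1DPI, 6 at 3DPI against 2DPI, 47 at 3DPI against 1DPI (1 member) and 59 for any day. Females alone gave 2, 0 and 35 genes on the 3 days against Veh (0 members at 2DPI, 1 at 3DPI), 0 at 2DPI against 1DPI, 0 at 3DPI against 2DPI (0 members), 10 at 3DPI against 1DPI (1 member) and 25 for any day. Males alone gave 0, 0 and 12 (0 members at 2DPI, 1 at 3DPI), 0, 3, 13 (1 member) and 13 genes in the same order.

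Some small log2 fold changes changed sign. In females alone these were Osmr at 1DPI (0.073) and, at 3DPI, Adam10 (-0.040), Il6st (0.006) and Timp2 (-0.000). In males alone they were S1pr3 at 1DPI (0.014), Vim (0.17) and Osmr (-0.40) at 2DPI, and Cd44 (-0.076), Fth1 (-0.042), Trf (-0.055) and Sgpp1 (0.019) at 3DPI. Without Ttr-rich libraries they were Osmr (-0.018) and Steap4 (-0.23) at 2DPI, and Cd44 (-0.062), Adam10 (-0.025), Trf (-0.026) and Aldoc (0.026) at 3DPI. With Ttr as a covariate they were Fth1 (-0.017) and Trf (-0.051), with the animal number digits Adam10 (-0.005) and Trf (-0.035), and with no sex term Fth1 (-0.002). Lcn2 at 2DPI differed by 0.128 CPM on mean CPM and did not pass. Within groups, r with Gfap was 0.48 (Vim) and 0.49 (Aspg) with Ttr fitted, and neither passed (adjusted p = 0.0508 each by permutation). With the animal number digits it was 0.44 (Vim), 0.23 (Aspg), -0.076 (Serpina3n), -0.12 (Cd44), 0.22 (S1pr3), 0.033 (Timp1), -0.65 for neuron markers and 0.53 for choroid plexus markers. The marker relations then passed, by permutation p-values that are too small after this fit. The Gfap to Osmr ratio without Ttr-rich libraries was 0.62.

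Leaving out 1 library at a time gave 1 to 27 genes called at 1DPI, 7 to 12 at 2DPI, 0 to 2 at 2DPI against 1DPI, 10 to 28 at 3DPI against 2DPI, 44 to 117 at 3DPI against 1DPI and 68 to 132 for any day. Members called were 1 to 3 at 3DPI, 1 to 3 at 3DPI against 1DPI and 1 to 2 for any day. The Lcn2 difference was 0.74 to 1.16 at 2DPI and 0.60 to 1.17 at 3DPI. Signs also varied for Vim (-0.022 to 0.088), Osmr (-0.14 to 0.10) and S1pr3 (-0.11 to 0.00) at 1DPI, for Vim (-0.079 to 0.030), Osmr (-0.011 to 0.24) and Steap4 (-0.23 to 0.56) at 2DPI, and at 3DPI for Cd44 (-0.028 to 0.085), Il6st (-0.062 to 0.008), Mmp17 (-0.006 to 0.024), Adam10 (-0.021 to 0.019), Fth1 (-0.014 to 0.031), Trf (-0.051 to 0.054) and Aldh1l1 (-0.006 to 0.056). Depth limits Lcn2, Timp1 and Steap4 most.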
